A study of Mus musculus with 27 samples.

Results

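Presynaptic active zone scaffolds are the large proteins that hold synaptic vesicles and calcium channels together at the release face of a nerve terminal. The group was chosen by name as 9 gene symbols, written in lower case in the deposited table (pclo, bsn, rims1, rims2, erc1, erc2, unc13a, unc13b and unc13c). All 9 were among the 26264 symbols of the table, and all 9 passed the filter on low values, a minimum average of 1 FPKM (fragments per kilobase of transcript, scaled to the size of the library) over the libraries used, which left 12976 genes to test. Piccolo (Pclo) and bassoon (Bsn) are giant scaffolds of the cytomatrix, the Rims proteins bind Rab3 on vesicles and tether calcium channels, the ELKS/CAST proteins (Erc1 and Erc2) bind Rims and the giant scaffolds, and the Munc13 proteins (Unc13a, Unc13b and Unc13c) open syntaxin so that vesicles become ready for fusion. In excitatory neurons of the cortex Munc13-1, the product of Unc13a, is the main priming factor, and Unc13c is best known from the cerebellum.

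All mice were 16-week-old females of the 5xFAD line, bred with C57BL/6J, whose transgenes include human APP with the Swedish, Florida and London changes and are driven in neurons by the Thy1 promoter. Every group carried the transgenes, so the comparisons are between treatments within a model of amyloid pathology. Each mouse received a single microinjection into the lateral parietal associative cortex of one hemisphere, either of R55 or R33 at 10 mM in 20% sulfobutylether beta-cyclodextrin in saline with 3% DMSO, or of the same vehicle without drug. Both compounds are thiophene thioureas described as stabilizers of the retromer, the complex that returns membrane proteins from endosomes. A block of cortex was taken from each hemisphere 24 h later, which gave 27 libraries from 14 mice, with 4 mice given vehicle, 5 given R33 and 5 given R55. Both hemispheres were used for 13 mice, and the R33 mouse labelled AE is represented by its injected hemisphere. The comparisons asked whether the scaffold transcripts differed between drug and vehicle, between the compounds, and between the injected and the contralateral hemisphere.

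The libraries held 15932197 to 38077027 fragments on genes. Markers of neurons were high in every library, and the summed level of 9 neuronal markers, not chosen to single out cortex, lay between 3033 and 4565 FPKM. The sum of 5 striatal markers ran from 33.1 to 273 FPKM and that of 3 choroid plexus markers from 3.84 to 1646 FPKM. Haemoglobin genes are listed at 0 in every library. In blocks of tissue, fewer cells of a type and less RNA per cell cannot be told apart.

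The genes are spread over 8 chromosomes of GRCm39, the build the reads were aligned to. Pclo spans chr5:14564932-14913473 on the plus strand, and Bsn spans chr9:107973221-108067629 on the minus strand. Rims1 lies at chr1:22356133-22845686 (minus) and Rims2 at chr15:39060328-39549500 (plus). Erc1 lies at chr6:119547756-119825459 (minus) and Erc2 at chr14:27344274-28200509 (plus), with a span of 856 kb the longest of the group. Unc13a lies at chr8:72076694-72124685 (minus), Unc13b at chr4:43058940-43264885 (plus) and Unc13c at chr9:73386701-73876490 (minus). Exon bases of 7 of the 9 genes are shared with an annotated gene on the other strand, such as Colgalt1 for Unc13a. Only Bsn shares some with a gene on its own strand, Gm55396. The libraries were stranded but the counting step was not described, so reads of such partners could not be told apart from those of the scaffold genes.

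What the scaffolds share beyond function is length. The length used for each gene, recovered from the deposited values, was 22100 bp for Pclo, 15937 bp for Bsn and 14493 bp for Unc13b, against a median of 3149 bp over all tested genes. Only 5 tested genes were longer than Pclo and 31 longer than Bsn. Erc2 was the shortest member at 6258 bp, and 87.0% of tested genes were still shorter. The remaining members measured 7276 bp (Rims1), 7940 bp (Rims2), 7960 bp (Unc13a), 8865 bp (Unc13c) and 9854 bp (Erc1).

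The start regions of 8 members were available from RefSeq on GRCm38.p6, each with 250 bases before and 50 after the annotated start, and Rims2 was the member without an entry. Pclo and Bsn are shown because they had the lowest values against vehicle, and Unc13c because it was the most variable member and stands apart in sequence. Capitals mark GGGCGG or its complement CCGCCC, the GC box bound by Sp factors, and CGCATGCG, the core of the site of the activator NRF1, searched on both strands.
Pclo, chr5:14514668-14514967, plus strand: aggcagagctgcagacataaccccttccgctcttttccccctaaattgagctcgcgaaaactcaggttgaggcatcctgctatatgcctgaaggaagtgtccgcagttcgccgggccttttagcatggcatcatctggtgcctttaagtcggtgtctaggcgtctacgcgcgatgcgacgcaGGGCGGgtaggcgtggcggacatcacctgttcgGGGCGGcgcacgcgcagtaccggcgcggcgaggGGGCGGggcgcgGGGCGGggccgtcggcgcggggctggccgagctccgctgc
Bsn, chr9:108190334-108190633, minus strand: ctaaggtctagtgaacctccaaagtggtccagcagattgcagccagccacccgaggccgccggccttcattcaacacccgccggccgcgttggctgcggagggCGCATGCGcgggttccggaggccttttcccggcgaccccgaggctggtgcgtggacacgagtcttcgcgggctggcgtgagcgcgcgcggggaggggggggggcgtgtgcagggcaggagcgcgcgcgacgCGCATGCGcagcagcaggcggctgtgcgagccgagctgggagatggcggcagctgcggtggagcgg
Unc13c, chr9:73968988-73969287, minus strand: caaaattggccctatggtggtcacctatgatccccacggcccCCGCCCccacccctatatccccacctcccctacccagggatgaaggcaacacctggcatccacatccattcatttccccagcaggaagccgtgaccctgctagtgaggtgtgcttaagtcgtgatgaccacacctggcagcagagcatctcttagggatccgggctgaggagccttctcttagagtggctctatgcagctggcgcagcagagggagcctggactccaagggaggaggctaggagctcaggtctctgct
The Pclo region held 35 CpG dinucleotides and 4 GC boxes, and the Bsn region 38 CpG and 2 NRF1 cores without a GC box. The Unc13c region held 6 CpG and 1 GC box. Over the 32851 regions of the same length the median was 7 CpG, 35.7% held a GC box and 1.87% an NRF1 core. The other members held between 20 CpG (Unc13b) and 46 CpG (Erc1), and each of them carried 2 to 4 GC boxes and no NRF1 core. A cyclic AMP response element (TGACGTCA), which 1.79% of all regions carried, was found in none of the 8 regions, which says only that these letters are not in these windows.

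Rims1 was the most abundant scaffold transcript per length, with 63.3 ± 12.3 FPKM (SD of mouse means, n = 14). It was followed by Unc13a at 47.3 ± 7.09 FPKM, Bsn at 35.8 ± 7.90 FPKM, Erc2 at 22.4 ± 4.09 FPKM and Rims2 at 18.8 ± 1.65 FPKM. Pclo reached 11.5 ± 2.80 FPKM, Erc1 5.97 ± 0.656 FPKM, Unc13c 4.79 ± 1.73 FPKM and Unc13b 2.50 ± 0.279 FPKM. The order was the same in all 14 mice for Unc13a over Bsn, Bsn over Erc2, Rims2 over Pclo, Pclo over Erc1, and Unc13c over Unc13b. Neighbours that were not cleanly separated were Rims1 and Unc13a (Rims1 higher in 12 of 14 mice), Erc2 and Rims2 (Erc2 higher in 10 of 14) and Erc1 and Unc13c (Erc1 higher in 12 of 14). Within each family 1 paralogue was dominant in this tissue. Unc13a exceeded Unc13b by a factor of 19.1 ± 2.83 in the vehicle mice (SD, n = 4), Erc2 exceeded Erc1 by 3.80 ± 0.386, and Rims1 exceeded Rims2 by 3.34 ± 0.0499. The corresponding factors in the R55 mice were 19.1 ± 2.38, 3.58 ± 0.575 and 3.24 ± 0.671 (SD, n = 5), and their ranges overlapped those of vehicle. Pclo stood to Bsn as 0.343 ± 0.0335 with vehicle, 0.336 ± 0.0303 with R33 and 0.294 ± 0.0420 with R55, again with overlap.

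The members differed in how far mice varied. The SD of log2 values between mice of 1 treatment was 0.10 for Unc13b, 0.12 for Erc1 and Rims2, and 0.20 to 0.30 for Pclo, Bsn, Rims1, Erc2 and Unc13a. Unc13c was the most variable at 0.41. Counting error was small beside this spread, because the thinnest member, Unc13c, still had 463 fragments in its poorest library (a counting error of 4.65%) and Pclo had at least 4364 (1.51%).

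**Figure D1:**
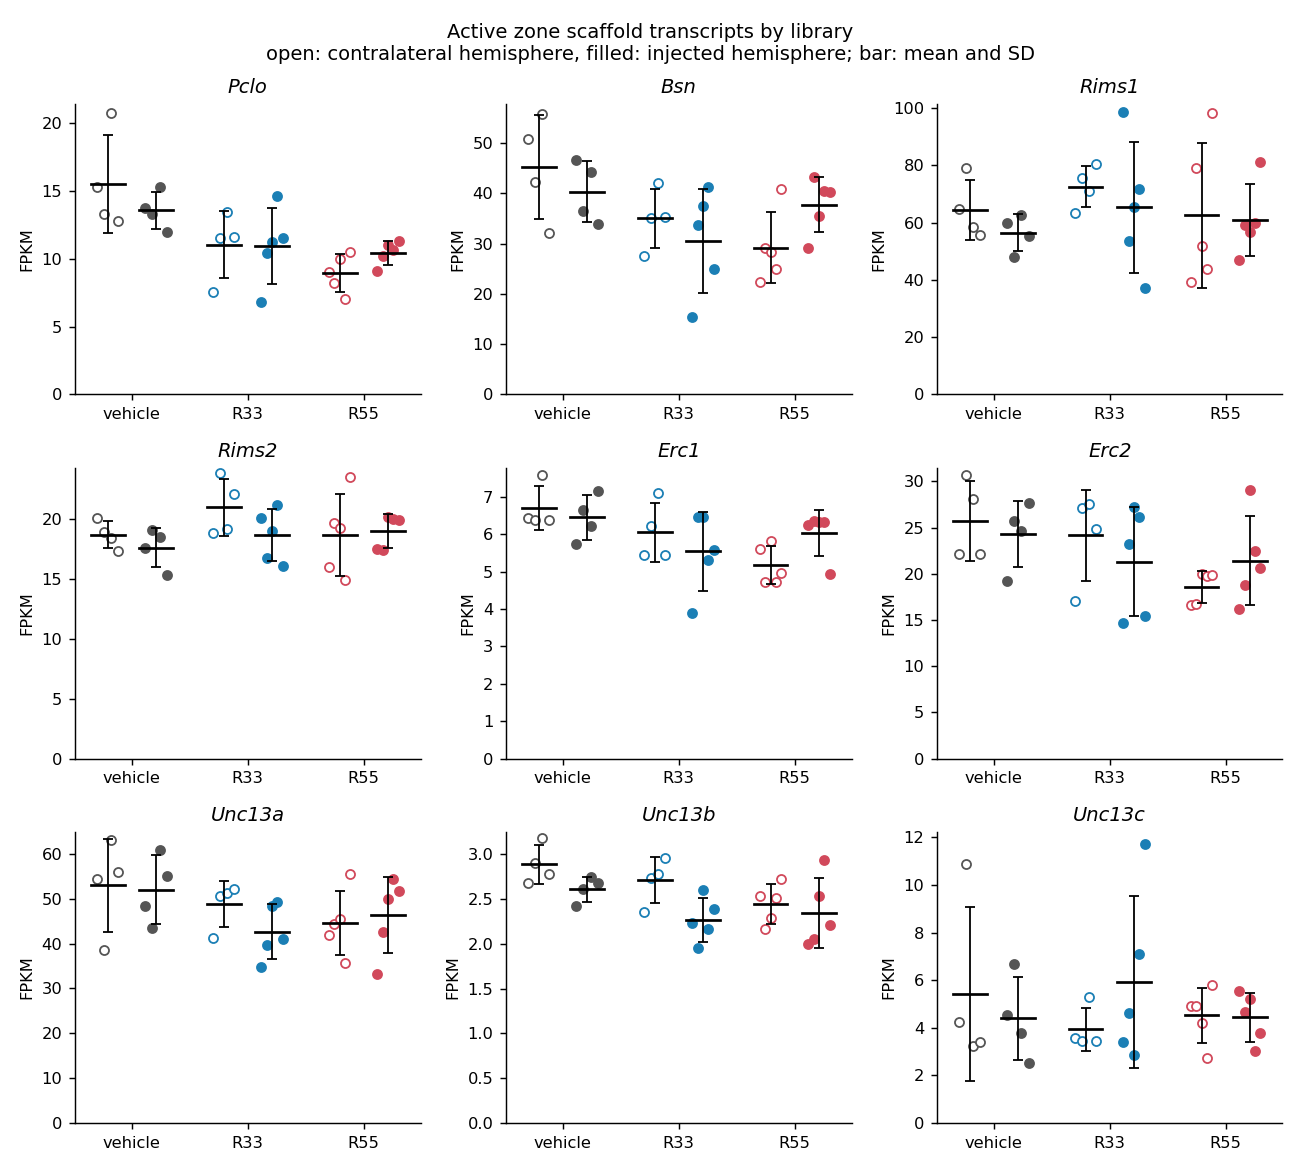
FPKM of the 9 scaffold genes in each library (y axes from 0), by treatment, with open points for the contralateral and filled points for the injected hemisphere, and bars for the mean and SD of 4 or 5 libraries. Pclo in the R55 libraries lies between 7.01 and 11.3 FPKM, below all vehicle libraries, which start at 11.99 FPKM, while Rims2 overlaps between all groups.

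Transcript levels in the R55 mice were then compared with those in the vehicle mice. Of the scaffolds, 8 were lower on average (3 of them, Rims1, Unc13b and Unc13c, changed sign with the length correction described further on) and Rims2 was higher, yet none passed the adjusted threshold of 0.05, at which 0.00771% of all tested genes were called. At an unadjusted p under 0.05, 5 of the 9 were lower and none higher, against 3.74% of tested genes called lower. The members were chosen with earlier results of these data known. Here and below, such counts and shares therefore describe the group and do not test it. The median log2 fold change of the 9 members was -0.20, and that of all tested genes was 0.03. Fold changes are on the log2(FPKM + 1) scale, which understates those of low genes, and the fit treated both hemispheres of each mouse as if independent. With 1 value per mouse, 2 of the 9 were below an unadjusted p of 0.05, both lower, against 1.79% of tested genes.

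Pclo showed the largest difference of the group. In the contralateral vehicle libraries it measured 12.8, 13.3, 15.3 and 20.7 FPKM, and in the injected vehicle libraries 11.99, 13.3, 13.7 and 15.3 FPKM. In the R55 mice the contralateral values were 7.01, 8.25, 9.01, 9.97 and 10.5 FPKM, and the injected values 9.07, 10.2, 10.6, 11.0 and 11.3 FPKM. Every R55 library was thus below every vehicle library. The mouse means were 14.6 ± 2.46 FPKM with vehicle (SD, n = 4) and 9.70 ± 0.936 FPKM with R55 (SD, n = 5), a log2 fold change of -0.53 ± 0.12 (SE) or a fold of 0.691. The adjusted p from limma was 0.13. It passed the threshold when the fit was restricted to R55 and vehicle (adjusted p = 0.0469) and when the R33 mouse AD, which changes only the shared estimate of spread, was left out (adjusted p = 0.00815, with 50 genes called in place of 1). Both of these fits treat the hemispheres of a mouse as independent. The adjusted p was 0.85 in a fit that estimated how far libraries of a mouse correlate, and 0.92 when each mouse gave 1 value. Over all alternatives its adjusted p ran from 0.00815 without mouse AD up to 0.999997 in the injected libraries alone.

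Bsn, the partner of piccolo, was less cleanly separated. Its contralateral vehicle libraries held 32.1, 42.2, 50.8 and 55.8 FPKM and its contralateral R55 libraries 22.5, 25.02, 28.3, 29.1 and 40.9 FPKM. In the injected hemisphere it measured 33.9, 36.4, 44.2 and 46.6 FPKM with vehicle and 29.2, 35.5, 40.2, 40.5 and 43.3 FPKM with R55. The injected groups overlapped, with only the R55 mouse AA below the vehicle range, and in the contralateral hemisphere only the R55 mouse R reached into the vehicle range. The log2 fold change over both hemispheres was -0.35 ± 0.16 (SE, adjusted p = 0.58).

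Both ELKS/CAST genes were lower. Erc1 mouse means were 6.09 to 6.91 FPKM with vehicle and 4.96 to 6.08 FPKM with R55. The groups did not overlap, although the nearest mice of each differed by less than 1 counting error (log2 fold change -0.20 ± 0.08, adjusted p = 0.55). Erc2 mouse means ran from 20.7 to 28.2 FPKM with vehicle and from 16.4 to 24.5 FPKM with R55, with overlap (log2 fold change -0.31 ± 0.13, adjusted p = 0.56). Over the 9 members, 2 (Pclo and Erc1) had all R55 mice below all vehicle mice, against 1.41% of tested genes.

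The Munc13 genes, which prime vesicles, differed among themselves. Unc13a, with mouse means of 41.0 to 62.1 FPKM with vehicle and 37.7 to 53.7 FPKM with R55, had a log2 fold change of -0.20 ± 0.11 (adjusted p = 0.59). Unc13b had mouse means of 2.55 to 2.96 FPKM with vehicle and 2.11 to 2.72 FPKM with R55, and 4 of the 5 R55 mice were below all vehicle mice (log2 fold change -0.15 ± 0.06, adjusted p = 0.55). Unc13c differed by -0.03 ± 0.21 (adjusted p = 0.98), with a 95% interval from -0.47 to 0.41.

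The Rims genes had estimates near 0 at the deposited scaling. Rims1 mouse means lay between 55.5 and 63.6 FPKM with vehicle and spread from 43.1 to 89.8 FPKM with R55, so that 3 R55 mice were below and 2 above the whole vehicle range (log2 fold change -0.02 ± 0.16, adjusted p = 0.98). Rims2 measured 16.3 to 19.0 FPKM with vehicle and 16.7 to 21.7 FPKM with R55 (log2 fold change 0.04 ± 0.08, adjusted p = 0.85). Rims2 had a 95% interval from -0.11 to 0.20, the narrowest after Unc13b.

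Leaving out vehicle mouse L, which had the highest Pclo, Bsn and Unc13a, reduced the members lower at an unadjusted p under 0.05 from 5 to 2, moved the median of the 9 from -0.20 to -0.13 and moved Unc13a to -0.12. Without vehicle mouse J, Unc13a was at -0.31. Without the R55 mouse AA or AB the number of members at that level was 3. Of 12976 tested genes, 428 were lower at that level without L, 439 without AA and 321 without AB. The series of the mouse label, of 1 or 2 letters, also bears on single members. For Bsn the R55 minus vehicle difference of log2 values was -0.21 in the mice with 1 letter (3 against 3) and -0.67 in those with 2 letters (2 against 1), for Pclo it was -0.48 and -0.62, and for Erc1 it was -0.25 and -0.08. Summed neuronal markers had medians of 3863 FPKM in the vehicle and 3943 FPKM in the R55 libraries, and choroid plexus markers ranged from 5.94 to 1128 FPKM and from 3.84 to 152 FPKM. With R55 all 5 astrocyte markers were higher (median log2 fold change 0.13, 1 at an unadjusted p under 0.05), as were all 5 oligodendrocyte markers (0.15), and all 4 endothelial markers were lower (-0.14). Summed endothelial markers ran from 24.2 to 38.8 FPKM in libraries of mice with 2 letters, whatever the treatment. With 1 letter they ran from 40.4 to 102.5 FPKM. Mice with 2 letters were 2 of the R55 and 1 of the vehicle mice, and the marker values given here were not adjusted for series. For the scaffolds, a fit with the series as covariate left 4 of the 9 members at an unadjusted p under 0.05. At that level were 985 of 12976 tested genes. The median of the members was then -0.17, and 0 members passed the adjusted threshold. No marker gene of the tissue lists passed the adjusted threshold, and the part of tissue composition in the scaffold values was not tested.

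The length of the scaffold transcripts moved with these differences. When the tested genes were put into 10 equal bins by length, the longest bin, with 8 of the 9 members, had a median log2 fold change of R55 against vehicle of -0.10, and the shortest bin one of 0.10. After the trend on length was removed from each library, Pclo was at -0.21 ± 0.07 (unadjusted p = 0.00364, adjusted p = 0.73) and Erc2 at -0.27 ± 0.12 (unadjusted p = 0.0290, adjusted p = 0.73). These 2 members were the ones still at an unadjusted p under 0.05, both lower, against 3.61% of tested genes. With 1 value per mouse on this scale, Pclo was below that level (unadjusted p = 0.0247) and Erc2 was not (0.0587). Bsn was then at -0.10 ± 0.12 and Erc1 at -0.06 ± 0.05, while Rims2 went from 0.04 to 0.14 ± 0.08 (unadjusted p = 0.0900, 4 of 5 R55 mice above all vehicle mice), Unc13b turned to 0.08 ± 0.08, Rims1 to 0.06 ± 0.18 and Unc13c to 0.09 ± 0.21. The median of the members became -0.06, with 5 of 9 lower. The mouse means of R55 and vehicle overlapped for all 9 members on this scale, where 0.701% of tested genes had all R55 mice lower. Why the difference followed length was not tested.

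**Figure D2:**
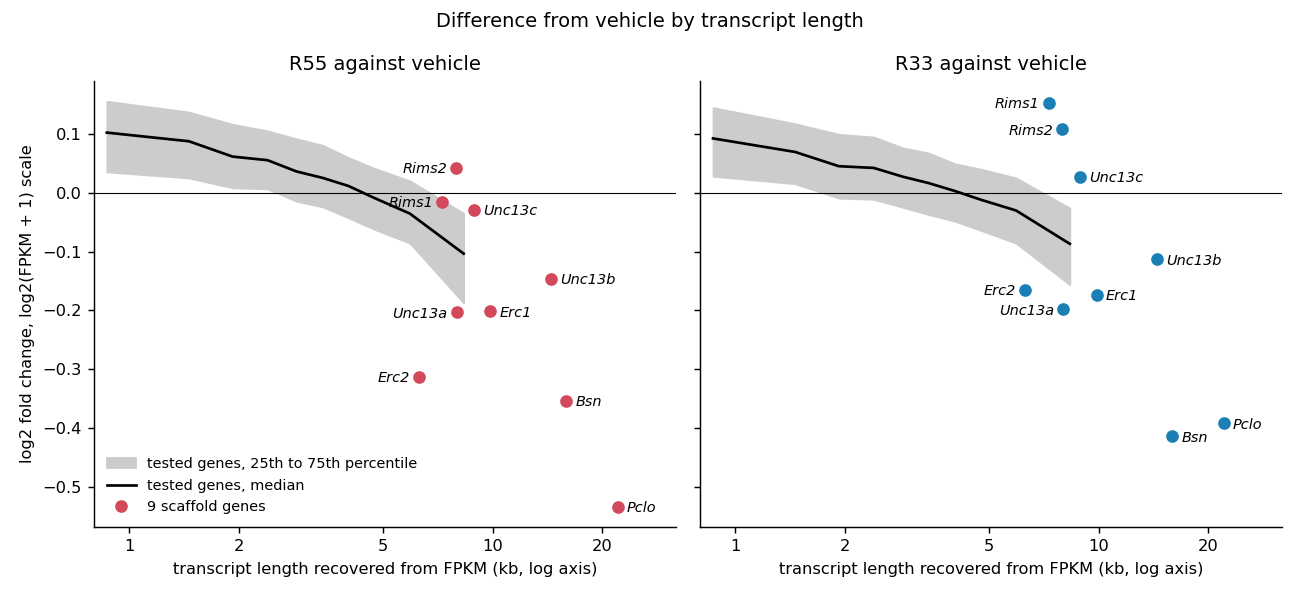
Log2 fold change against vehicle (y axis, log2(FPKM + 1) scale) by transcript length (x axis, kb, log scale) for R55 (left) and R33 (right), with the median and the 25th to 75th percentile of tested genes in 10 bins by length. The medians go from 0.10 to -0.10 for R55, and Pclo and Bsn lie at the long end with the lowest values of the 9 scaffold genes in both panels.

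The same comparison was made for R33, which shares its vehicle mice with the comparison above. No scaffold passed the adjusted threshold, at which 0% of tested genes were called by limma (762 genes were at an unadjusted p under 0.05 in either direction, and limma voom on the recovered fragments called 0). At an unadjusted p under 0.05, 3 of 9 members were lower and none higher, against 2.68% of tested genes called lower. With 1 value per mouse the number was 2, against 1.29%.

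Pclo in the R33 mice measured 7.55, 11.5, 11.6 and 13.5 FPKM in the contralateral hemisphere and 6.80, 10.4, 11.2, 11.6 and 14.6 FPKM in the injected hemisphere. Mouse AD was the lowest in both hemispheres, mouse N was within the vehicle range, and the other mice lay below it, at 10.4 to 11.6 FPKM. The log2 fold change was -0.39 ± 0.12 (SE, adjusted p = 0.83). Bsn measured 27.6, 35.1, 35.2 and 42.1 FPKM contralaterally and 15.5, 24.9, 33.7, 37.4 and 41.3 FPKM on the injected side, at -0.41 ± 0.17 (adjusted p = 0.83). Erc1 was at -0.17 ± 0.08, Erc2 at -0.16 ± 0.13, Unc13a at -0.20 ± 0.11 and Unc13b at -0.11 ± 0.06 (adjusted p from 0.83 to 0.85). Rims1, Rims2 and Unc13c were higher, at 0.15 ± 0.17, 0.11 ± 0.08 and 0.03 ± 0.22.

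For none of the 9 genes did all R33 mice lie below all vehicle mice, as 0.416% of tested genes did, or 0.293% after removal of the length trend. Without the R33 mouse AD or without vehicle mouse L, 1 of the 9 members was at an unadjusted p under 0.05. Of 12976 tested genes, 490 were at that level without AD and 478 without L. Without AD the log2 fold changes were -0.24 for Pclo, -0.25 for Bsn, -0.10 for Erc1, -0.035 for Erc2, -0.13 for Unc13a and 0.088 for Rims1. Without vehicle mouse L, Unc13a was at -0.11. Leaving out vehicle mouse J gave -0.31 for Unc13a and -0.11 for Erc2, leaving out R33 mouse K or vehicle mouse AH gave -0.25 for Erc2, and leaving out vehicle mouse M gave 0.060 for Rims2. By the series of the mouse label, Pclo differed by -0.21 in the mice with 1 letter and -0.68 in those with 2, Bsn by -0.17 and -0.86, and Erc1 by -0.14 and -0.13. Mouse AD combined the highest Rims1 value of all libraries, 98.5 FPKM in its injected hemisphere, with the lowest Pclo, Bsn, Erc1 and Erc2 values (6.80, 15.5, 3.89 and 14.6 FPKM) in the same library. With the length trend removed, Pclo was at -0.15 ± 0.07 (unadjusted p = 0.0410), Bsn at -0.22 ± 0.13 and Rims2 at 0.18 ± 0.08 (unadjusted p = 0.0271). Of the 9 members, 1 (Pclo) was then lower at an unadjusted p under 0.05, against 2.47% of tested genes. Rims2 was the 1 member higher at that level, as were 359 of 12976 tested genes. With 1 value per mouse on this scale, none of the 9 was below 0.05 (Pclo unadjusted p = 0.0763, Rims2 0.0925).

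**Figure D3:**
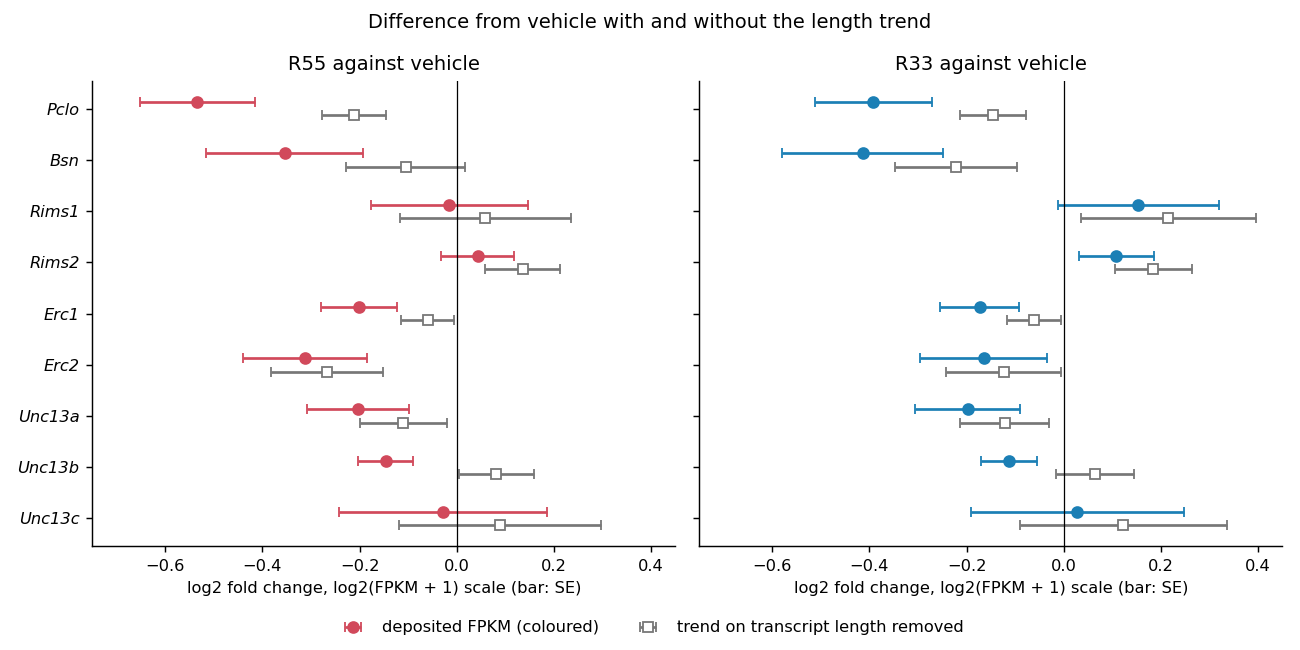
Log2 fold change against vehicle (x axis, log2(FPKM + 1) scale, bars are SE) of each scaffold gene for R55 (left) and R33 (right), with filled circles for the deposited FPKM and open squares after removal of the trend on transcript length. Removal moves Pclo from -0.53 to -0.21 with R55 and from -0.39 to -0.15 with R33, and Unc13b crosses 0 in both panels, as do Rims1 and Unc13c with R55.

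R55 and R33 were injected at the same concentration and sampled at the same time, so their mice were compared directly. None of the 9 members was at an unadjusted p under 0.05, which 1.15% of tested genes were, and the adjusted p-values from limma were all 0.9998. Pclo was lower with R55 by -0.14 ± 0.11 on the log2 scale, with a 95% interval from -0.38 to 0.09. Bsn differed by 0.06 ± 0.16 (interval -0.26 to 0.38), Erc2 by -0.15 ± 0.12 (interval -0.40 to 0.11) and Rims1 by -0.17 ± 0.16 (interval -0.49 to 0.15). The estimates of the other members lay between -0.07 for Rims2 and -0.0050 for Unc13a. Mouse AD weighed on this comparison. Without it, 2 of the 9 members were at an unadjusted p under 0.05, all 9 were lower with R55, Pclo was at -0.29, Bsn at -0.10 and Erc2 at -0.28 (adjusted p = 0.41, 0.79 and 0.46), while the tested genes at that level went from 149 to 1338 and 2 genes passed the adjusted threshold. Without R33 mouse N, Pclo was at -0.039 and Erc2 at -0.068. Without R55 mouse R, 1 member was at an unadjusted p under 0.05, as were 188 of 12976 tested genes. The intervals reach 0.38 for Bsn and -0.40 for Erc2, so the compounds were not shown to act alike on these genes.

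The injected and the contralateral hemisphere were compared over all treatments. Only Unc13b was at an unadjusted p under 0.05, where 3.47% of tested genes were. It was lower on the injected side by -0.11 ± 0.05 (unadjusted p = 0.0237, adjusted p = 0.9999), and lower in 11 of the 13 mice with both hemispheres. Without R33 mouse N or R55 mouse AA, no member was below that level. With the mouse as replicate block the value for Unc13b was -0.10 ± 0.04 (unadjusted p = 0.0326, adjusted p = 0.78). The estimates of the remaining members lay between -0.12 for Rims1 and 0.06 for Unc13c.

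At the deposited scaling, the direction of the hemisphere difference for Pclo and Bsn varied with treatment. This was not particular to them. The mean difference was also above 0 with R55 and below 0 with vehicle for Rims1, Rims2, Erc1, Erc2 and Unc13a. For Erc1 it was 0.19 ± 0.16 and -0.05 ± 0.18 (SD), and for Erc2 0.17 ± 0.21 and -0.08 ± 0.26. Pclo was higher on the injected side in 5 of 5 R55 mice, by 0.21 ± 0.21 on the log2 scale (SD, n = 5), though by only 0.0084 in mouse AA. It was lower in 3 of 4 vehicle mice, by -0.16 ± 0.18 (SD, n = 4). In the R33 mice it was lower on the injected side in 3 of 4, with a mean of -0.02 ± 0.10. Bsn was higher on the injected side in 4 of 5 R55 mice (0.38 ± 0.27) and lower in 3 of 4 vehicle mice (-0.14 ± 0.17) and 3 of 4 R33 mice (-0.30 ± 0.41). After removal of the length trend, Pclo in the R55 mice differed by 0.069 (P), 0.0085 (AA), -0.070 (Q), 0.197 (R) and -0.032 (AB). In the vehicle mice Pclo then ran from -0.23 (L) to 0.045 (AH). Bsn in the R55 mice then ran from 0.040 (R) to 0.35 (AA).

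In a test of the interaction, the R55 effect was less negative in the injected than in the contralateral hemisphere by 0.37 ± 0.23 for Pclo and 0.52 ± 0.31 for Bsn (adjusted p = 0.9994 for both). All 9 estimates were above 0, as were 41.7% of those of tested genes. With the mouse as replicate block the estimates were unchanged and the errors smaller, 0.12 for Pclo (unadjusted p = 0.00640) and 0.18 for Bsn (unadjusted p = 0.0118), with adjusted p-values of 0.81. After removal of the length trend the estimates were 0.11 for Pclo and 0.30 for Bsn, and 7 of the 9 were above 0, while 50.4% of all tested genes were below 0. With the replicate block on this scale neither Pclo (unadjusted p = 0.245) nor Bsn (0.0610) was below 0.05, and 0 members were. Without the R33 mouse AD and without the block, 2 members were at an unadjusted p under 0.05 at the deposited scaling, as were 481 of 12976 tested genes. Fitted on the contralateral hemisphere alone, R55 against vehicle gave -0.72 ± 0.17 for Pclo, -0.62 ± 0.18 for Bsn, -0.44 ± 0.14 for Erc2 and -0.32 ± 0.09 for Erc1. The injected hemisphere alone gave -0.35 ± 0.15, -0.09 ± 0.22, -0.19 ± 0.20 and -0.08 ± 0.12 for the same genes. Both of these fits were at the deposited scaling, with the length trend not removed. In the contralateral fit 1490 of 12976 tested genes were at an unadjusted p under 0.05, and 0 passed the adjusted threshold (lowest adjusted p from limma 0.25). In the injected fit 141 were at that level, and 0 passed the adjusted threshold. For R33 the corresponding interaction was 0.14 ± 0.24 for Pclo and -0.11 ± 0.31 for Bsn (adjusted p = 0.9997 for both).

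**Figure D4:**
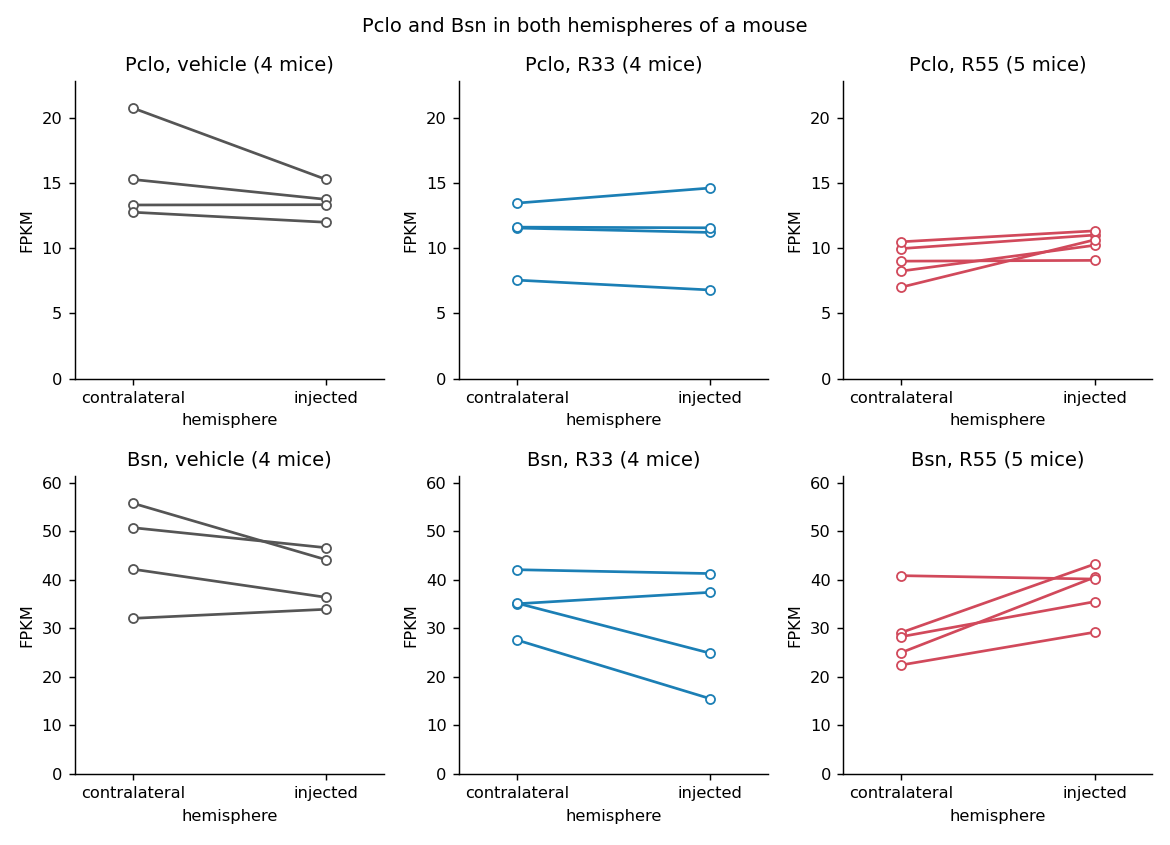
FPKM of Pclo (top) and Bsn (bottom) in the contralateral and injected hemisphere (x axis) of each mouse with both libraries, joined by a line, for vehicle (4 mice), R33 (4 mice) and R55 (5 mice). At this scaling Pclo is higher on the injected side in all 5 R55 mice and in 1 of 4 vehicle mice. In R55 mouse AA the values are 9.07 and 9.01 FPKM, and the length trend is not removed here.

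Unc13c was set apart by single libraries. It measured 10.9 FPKM in the contralateral and 6.69 FPKM in the injected hemisphere of vehicle mouse J, 11.7 FPKM in the injected hemisphere of R33 mouse O, and 7.08 FPKM in that of R33 mouse N. The other 23 libraries lay between 2.52 and 5.79 FPKM. The contralateral library of mouse J had a choroid plexus marker sum of 1128 FPKM and the injected library of mouse N one of 1646 FPKM. The injected library of mouse J had 12.3 FPKM, and R33 mouse K had 1066 and 713 FPKM with Unc13c at 2.85 and 3.44 FPKM. Summed markers of hippocampal granule cells were 37.1 FPKM in the injected library of mouse J, the highest of all libraries. They were 23.0 FPKM in its contralateral library, 19.2 FPKM in mouse O injected and 2.98 FPKM in mouse N injected. Vehicle mouse M injected had 34.0 FPKM with Unc13c at 2.52 FPKM. Striatal markers were highest in mouse N injected, at 273 FPKM. The injected library of mouse O had a choroid plexus sum of 6.23 FPKM, the lowest neuronal sum (3033 FPKM) and the highest oligodendrocyte sum (2360 FPKM). The part of neighbouring tissue in these values was not tested.

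The scaffolds act with a wider set of proteins, of which a pair of lists was examined. Of 30 active zone partners, which include liprins, Rab3 proteins, calcium channel subunits and neurexins, 29 were tested. With R55, none passed the adjusted threshold, 2 were lower (against 3.74% of tested genes) and 1 higher (against 4.71%) at an unadjusted p under 0.05, and the median log2 fold change was -0.03. The largest differences were those of the calcium sensor Doc2b (-0.62 ± 0.45), the Munc13 relative Baiap3 (-0.34 ± 0.32) and the small Rim isoform gene Rims3 (0.32 ± 0.16), with adjusted p from 0.59 to 0.72. With vehicle, Doc2b measured 10.5 ± 8.76 FPKM and Baiap3 1.24 ± 1.42 FPKM (SD), so the vehicle values of both were widely spread. Baiap3 also lay near the filter of 1 FPKM. Among the 18 genes of fusion and priming, which include the SNARE proteins, synaptotagmins and complexins, 2 were lower and none higher at that level, with a median of -0.01. The calcium sensor Syt2 was at 0.40 ± 0.20, the syntaxin-binding tomosyn gene Stxbp5l at -0.29 ± 0.12 and the complexin gene Cplx3 at 0.29 ± 0.17 (adjusted p from 0.56 to 0.62). Stxbp5l has a length of 12061 bp and went to -0.10 with the length trend removed. With R33, Cplx3 was at 0.51 ± 0.18 and Syt2 at 0.47 ± 0.21 (adjusted p = 0.83 for both). No gene of either list passed the adjusted threshold with R33, in R55 against R33, or between hemispheres.

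Across the 14 mice, each scaffold was set beside the genes whose levels ran most closely with its own. This is a description over mouse means of log2 values, which share treatment, dissection and library preparation. Unc13a was most like Cacna1a, the gene of the P/Q-type calcium channel at release sites (Pearson r = 0.98, Spearman rho = 0.97). Pclo was most like 4932438A13Rik (r = 0.96) and the huntingtin gene Htt (r = 0.95), with lengths of 15883 and 13219 bp. Bsn was most like the vesicle-precursor motor Kif1a (r = 0.90) and Srcin1 (r = 0.90), Rims1 most like Ppp2r2c (r = 0.90) and Camk2n1 (r = 0.85), and Rims2 most like Evi5 (r = 0.90) and Zfp367 (r = 0.87). Erc1 ran with Rabgap1l and Rapgef2 (both r = 0.94), Erc2 with Fam171b (r = 0.92), Unc13b with 1700001L05Rik (r = 0.92) and Abcc5 (r = 0.89), and Unc13c with Rcan3 (r = 0.90) and Plce1 (r = 0.88).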

How the data were processed

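RNA was measured in cortical blocks of 5xFAD mice. The authors prepared stranded mRNA libraries, used HISAT2 to align read pairs to the mouse genome (GRCm39) and deposited FPKM in one table of 32 libraries, of which 27 were used and 5 were not used here. The counting tool and its annotation are not given in the sources used here. The authors tested with DESeq2, treatment and hemisphere being separate factors.

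Of the FPKM above 0, 100.0% came out as whole fragments within 0.01, which gave each gene's length and fragments. Values of log2(FPKM + 1) were fitted with limma 3.58.1 (R 4.3.3) with additive treatment and hemisphere, or their 6 groups for interactions, over the 12976 genes averaging 1 FPKM or more, and p-values were adjusted by Benjamini-Hochberg over all of them. Libraries of a mouse entered as separate. Length trends were removed per library by lowess (span 0.3). Named genes were all 9 members, the 3 genes per partner list with the largest R55 difference, and the 2 non-members most correlated with each member, of which 1 is not reported here. Members and lists were chosen with earlier results of these data known. The fits were run on simulated data in which every library was drawn independently, so the correlation within mice was not covered. Deviations of the 2 libraries of a mouse correlated between -0.08 and 0.65 (mean 0.39, 13 pairs), and the shared mouse label pairs them. Figures and summaries used Python 3.11.15.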

Additional observations from a re-analysis of the deposited data

Results flagged for a closer look

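Of 54 groups of 4 or 5 libraries (9 genes in 6 groups), 4 held a library whose distance to the nearest other exceeded Dixon's limit, where chance gives about 1 in 20 groups. Erc1 was high in the contralateral library of vehicle mouse L (7.59 FPKM, the next being 6.43 FPKM) and low in the injected library of R55 mouse R (4.95 FPKM, the next being 6.24 FPKM). Unc13a was low in the contralateral library of R33 mouse AD (41.3 FPKM, the next being 50.6 FPKM). Unc13c was high in the contralateral library of R33 mouse N (5.28 FPKM, the next being 3.59 FPKM).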

How the results depend on the processing

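No scaffold was called in any comparison, and this count changed for R55 against vehicle, where 1 gene, Pclo, was called with only those treatments in the fit, and where leaving out a mouse gave 0 to 1. Of 682 log2 fold changes under alternatives, 652 kept direction and side of the threshold, 2 passed it (Pclo) and 28 changed sign. Removing the length trend turned R55 against vehicle to 0.059 for Rims1, 0.082 for Unc13b and 0.088 for Unc13c, with the same values from 1 value per mouse (added after the data were seen), and R33 against vehicle to 0.064 for Unc13b (0.026 with 1 value per mouse). In the injected libraries alone, R55 against vehicle was 0.089 for Rims1 and 0.049 for Unc13c, and R55 against R33 was 0.025 for Erc2. In the contralateral libraries alone, R55 against vehicle was -0.018 for Rims2, R33 against vehicle -0.26 for Unc13c and R55 against R33 -0.27 for Bsn. Leaving out 1 mouse moved R55 against vehicle from -0.16 to 0.10 for Rims1, from -0.0075 to 0.081 for Rims2 and from -0.19 to 0.24 for Unc13c, R33 against vehicle from -0.13 to 0.29 for Unc13c, and R55 against R33 from -0.10 to 0.18 for Bsn. The cause was not tested. The mouse as replicate block, possible for hemisphere comparisons, gave 0 called scaffolds, with -0.10 for Unc13b, 0.37 for Pclo and 0.52 for Bsn, and changed no other call. The thinnest value of these genes rested on 463 fragments, and a limit from depth was not tested.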
